A study of Homo sapiens with 4 samples.

Results

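The genes described here are 9 members of the DNA methylation machinery: the DNA methyltransferases DNMT1, DNMT3A, DNMT3B and DNMT3L, the maintenance factor UHRF1, the methyl-CpG reader MBD2 and the dioxygenases TET1, TET2 and TET3. Members were chosen by exact gene name, and they carry 20 of the 50599 probes on the array (9 of 36338 gene names). The cells were GIST-T1, a human line established from a gastrointestinal stromal tumor (GIST). Cells (3000000 per transfection) received, by Nucleofector, 100 pmol of either a miR-34a mimic, a synthetic RNA that works like the mature miRNA, or a negative control RNA. Total RNA was taken 48 h later, and 2 one-color arrays were hybridized per condition. The study asked which genes change when miR-34a, a miRNA silenced by DNA methylation in these cells, is returned to them. No demethylating drug was given to the cells on these arrays, all 4 arrays are of 1 cell line, and the labels do not say whether replicates were separate cultures, so p-values measure only the spread between arrays.

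DNA methylation in mammals is written mainly at cytosines followed by guanine (CpG). DNMT3A and DNMT3B place new marks, with DNMT3L as a partner that has no catalytic activity of its own, and DNMT1 copies marks onto the new strand after replication, where UHRF1 brings it to hemimethylated DNA. TET enzymes oxidize 5-methylcytosine, which opens the way to its removal, and MBD2 binds methylated CpG and brings the NuRD corepressor to it. Dense methylation of a CpG island at a start site goes with a silent gene, and loss of the mark can let such a gene be read again.

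The mature sequence of miR-34a-5p, taken from RefSeq (GRCh38.p14, chr1:9151735-9151756, minus strand), is the sequence that the mimic supplies, and its seed (bases 2 to 8) is in capitals.
hsa-miR-34a-5p: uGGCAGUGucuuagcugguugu
None of the member probes reads a match to that seed. The 7-base words CACTGCC and ACTGCCA, which share 6 bases and pair with the seed or with all but its last base, followed by an A, were in 0 of the 20 member probes and in 354 of all 50599 probes (0.7%). A probe covers 60 bases of a transcript, so the count says nothing of the rest of it.

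The promoters of UHRF1 and DNMT1 are shown because these were the member genes whose windows held a word of the E2F type, the factor family that drives genes of S phase. RefSeq windows of 300 bases (250 before to 50 after a start site) were found for 8 of the 9 members, 19 windows in all, and DNMT3L had none. The words TTTCCCGC, TTTCGCGC, TTTGCCGC and TTTGGCGC, read on both strands, were in 3 of these 19 windows and in 1164 of all 35116 windows (3.31%). These words do not overlap one another within the windows shown. The words are in capitals in the lines that follow, which give GRCh38.p14 positions: chr19:4909251-4909500 and chr19:4909894-4910143 on the plus strand for UHRF1, and chr19:10194948-10195203 on the minus strand for DNMT1.
UHRF1 promoter, first start: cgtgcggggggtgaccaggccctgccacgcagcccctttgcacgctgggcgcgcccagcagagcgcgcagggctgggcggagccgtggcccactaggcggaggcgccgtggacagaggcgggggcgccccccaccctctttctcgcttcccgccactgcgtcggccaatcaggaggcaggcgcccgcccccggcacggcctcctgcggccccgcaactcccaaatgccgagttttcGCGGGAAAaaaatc
UHRF1 promoter, second start: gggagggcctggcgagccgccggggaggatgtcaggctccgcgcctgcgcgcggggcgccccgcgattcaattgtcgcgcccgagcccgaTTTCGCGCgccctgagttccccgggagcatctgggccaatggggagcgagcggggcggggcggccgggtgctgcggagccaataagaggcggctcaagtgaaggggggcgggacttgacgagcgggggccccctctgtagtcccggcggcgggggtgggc
DNMT1 promoter: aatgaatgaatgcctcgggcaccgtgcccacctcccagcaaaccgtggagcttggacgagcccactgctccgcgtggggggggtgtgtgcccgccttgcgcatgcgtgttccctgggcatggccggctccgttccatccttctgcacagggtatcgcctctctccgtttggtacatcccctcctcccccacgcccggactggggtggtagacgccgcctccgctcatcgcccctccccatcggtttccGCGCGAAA
The word GCGGGAAA of the first UHRF1 window begins at position -14 from the start site, TTTCGCGC of the second begins at position -160, and GCGCGAAA of DNMT1 begins at -2 and runs across it. A match is a description of letters, not a measured binding site. Most member promoters were rich in CpG: 14 of the 19 windows held more CpG than the median of 14 over all windows (quartiles 4 and 28). UHRF1 windows held 36 to 46 CpG, DNMT3A 18 to 46, TET3 33 to 45, TET2 13 to 35, MBD2 32 and DNMT1 30. TET1 windows held 6 to 11 CpG and the DNMT3B window 3. Methylation of these promoters was not measured on the arrays.

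The arrays gave values for 7 of the 9 members. Values are log2 processed signals relative to the 75th percentile of the same array, so that 0 is that percentile, and levels are not compared between probes. A probe is called detected on an array where its signal was well above background, and it was tested where both arrays of 1 condition or more detected it. That held for 15 member probes, all of them detected on all 4 arrays. The 4 arrays share 1 slide and 1 scan, 41.8% to 45.2% of the probes were well above background on each, and 0 spots were saturated. All 6 GIST markers checked (KIT, ANO1, ETV1, PRKCQ, PDGFRA and CD34) were detected on all 4 arrays, and so were 4 of the 10 markers of other cells (KRT8, DES, EPCAM and CD68). DES, a muscle filament, differed by -0.39 (adjusted p = 0.0346 with a variance trend in limma). CDH1, PECAM1, MYH11 and S100B were detected on no array. Of the GIST markers, KIT differed between mimic and control by -0.70 and PDGFRA by -1.53, CD34 by 0.37 in the other direction, and ANO1 and ETV1 by -0.062 and -0.073. In total RNA from a culture, fewer cells of one kind and less RNA per cell cannot be told apart.

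**Figure D1:**
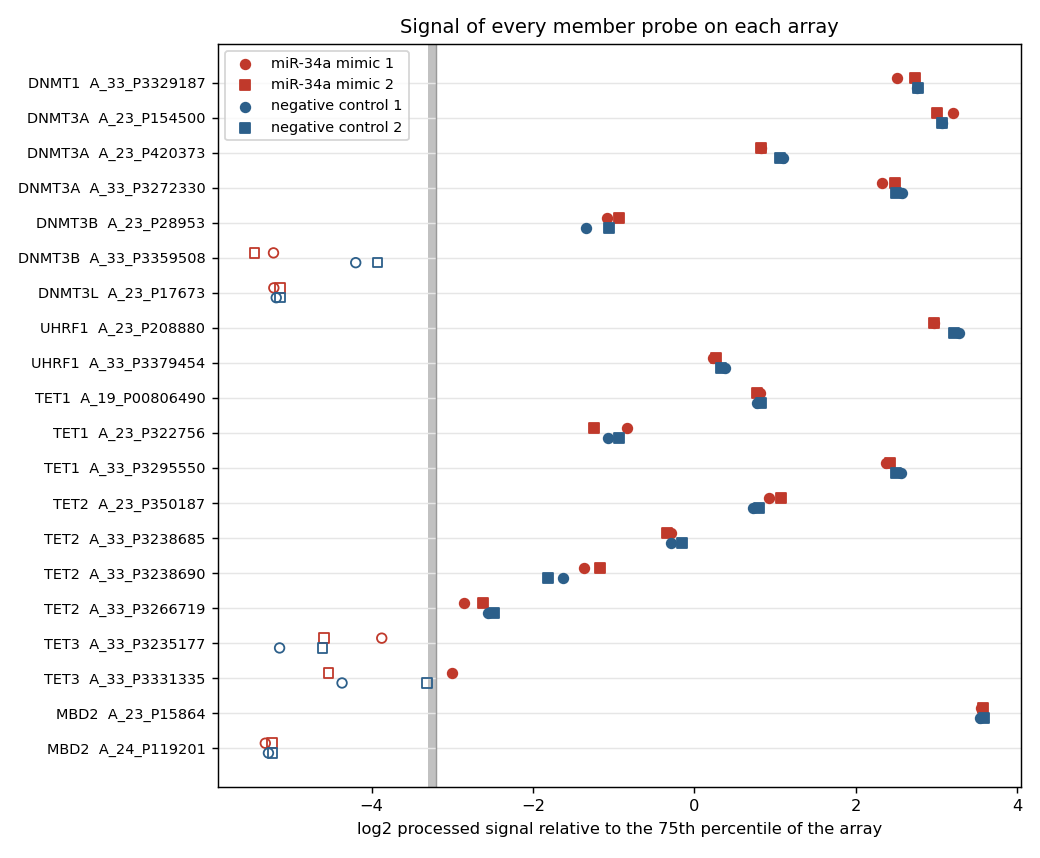
Level of each of the 20 member probes on each array, as the log2 processed signal relative to the 75th percentile of that array. Filled symbols were well above background, open symbols were not, and the grey band spans the lowest signals that were well above background (-3.30 to -3.20). The detected probes of DNMT1, DNMT3A, DNMT3B, UHRF1, TET1, TET2 and MBD2 lie above the band on all 4 arrays, while DNMT3L lies below it on all 4.

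DNMT1, the maintenance methyltransferase, was read by 1 probe (A_33_P3329187, hg19 chr19:10244023-10244082, minus strand). Its level was 2.51 and 2.74 on the mimic arrays and 2.75 and 2.76 on the control arrays. Both mimic arrays were below both control arrays, but the second mimic array lay beside the first control array. The difference of mimic minus control was -0.14 (SE 0.10, 2 arrays per condition, adjusted p = 0.444 by limma), with a 95% interval from -0.43 to 0.15. Leaving out 1 array at a time gave differences from -0.25 to -0.023, the smallest of them without the first mimic array.

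DNMT3A, a de novo methyltransferase, was read by 3 probes, whose differences ran from -0.26 to 0.036. Probe A_23_P420373, annotated to transcript NM_175630 (chr2:25504394-25504453, minus strand), read 0.82 and 0.82 with the mimic and 1.10 and 1.06 with the control. The mimic arrays were below the control arrays by much more than the gap within either pair. The difference was -0.26 (SE 0.054, 1.20-fold, unadjusted p = 0.0112 and adjusted p = 0.126 by limma), with an interval from -0.41 to -0.10. With a variance trend in limma, which lets the expected spread depend on the level, its adjusted p was 0.0677. The other probes, A_33_P3272330 (chr2:25457095-25457154) and A_23_P154500 (chr2:25456415-25456474), are annotated to NM_175629 and lie 47299 and 47979 bases closer to the gene's 3′ end. A_33_P3272330 read 2.32 and 2.48 with the mimic against 2.57 and 2.50 with the control, a difference of -0.14 (SE 0.083, adjusted p = 0.380 by limma) in which the conditions did not overlap. A_23_P154500 read 3.21 and 3.01 against 3.07 and 3.07, and here the conditions overlapped, with a difference of 0.036 (SE 0.091) and an interval from -0.23 to 0.30. The intervals of the 3 probes overlap, and the difference between the transcripts was not tested.

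DNMT3B, the other de novo methyltransferase, was read by a detected probe and by a probe that was not. Probe A_23_P28953 (NM_175850, chr20:31397064-31397123, plus strand) read -1.08 and -0.94 with the mimic and -1.34 and -1.06 with the control. The conditions overlapped, and the difference was 0.19 (SE 0.13, adjusted p = 0.413 by limma, interval from -0.18 to 0.56). It was 0.037 with normexp, 0.052 without the first control array and 0.33 without the second. Probe A_33_P3359508, annotated to transcript ENST00000537219 (chr20:31384813-31384872), was detected on none of the arrays, at -5.22, -5.45, -4.20 and -3.93. DNMT3L, the partner without catalytic activity, was not detected either, at -5.21 and -5.14 with the mimic and -5.18 and -5.13 with the control (A_23_P17673, chr21:45666270-45666329). The lowest signals that were well above background lay between -3.30 and -3.20.

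UHRF1, which reads hemimethylated DNA, gave the lowest difference of the tested member probes. Probe A_23_P208880 (NM_013282, chr19:4962065-4962124, plus strand) read 2.97 and 2.97 with the mimic and 3.28 and 3.21 with the control. The mimic arrays were both below the control arrays, and the gap was several times the gap within a pair. The difference was -0.27 (SE 0.057, 1.21-fold), with an interval from -0.44 to -0.11, an unadjusted p of 0.0117 and an adjusted p of 0.127 by limma. It was the one member probe called with a variance trend (adjusted p = 0.0356), and over all settings its difference stayed between -0.31 and -0.24. Probe A_33_P3379454, which lies 1170 bases closer to the 5′ end of the same transcript (chr19:4960895-4960954), read 0.23 and 0.27 against 0.38 and 0.32. Its mimic arrays were below its control arrays too, by -0.11 (SE 0.057, adjusted p = 0.338 by limma, interval from -0.27 to 0.061). The second probe therefore gave the same order of arrays at a smaller size, which its own interval does not separate from 0.

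MBD2, the methyl-CpG reader, did not move by more than the spread between arrays. Probe A_23_P15864 (NM_003927, chr18:51681393-51681452, minus strand) read 3.55 and 3.57 with the mimic and 3.54 and 3.59 with the control, so that the conditions overlapped. The difference was -0.0038 (SE 0.057, adjusted p = 0.973 by limma), and its interval from -0.17 to 0.16 lies far inside a 1.5-fold change. Probe A_24_P119201, annotated to the transcript NM_015832 (chr18:51729113-51729172), was detected on none of the arrays, at -5.32 to -5.23.

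TET1, an enzyme that starts active demethylation, was read by 3 probes of the transcript NM_030625 (plus strand of chromosome 10). The probe nearest its 5′ end, A_33_P3295550 (chr10:70332072-70332131), read 2.38 and 2.43 with the mimic and 2.56 and 2.49 with the control. The conditions did not overlap, and the difference was -0.13 (SE 0.060, adjusted p = 0.297 by limma, interval from -0.30 to 0.049). The probes A_23_P322756 (chr10:70453516-70453575) and A_19_P00806490 (chr10:70454164-70454223) lie 121444 and 122092 bases further along the gene. The former read -0.84 and -1.25 against -1.07 and -0.94, a difference of -0.042 (SE 0.17) with the widest interval among the TET1 probes, from -0.53 to 0.45. The latter read 0.82 and 0.77 against 0.78 and 0.83, a difference of -0.0091 (SE 0.057) with an interval from -0.18 to 0.16. Both of these overlapped between conditions, and their sign turned when single arrays were left out.

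TET2, the dioxygenase often mutated in myeloid disease, was the member whose tested probes differed most among themselves. It was read by 4 probes on the plus strand of chromosome 4, and 1 of them, A_33_P3238685 (NM_001127208, hg19 chr4:106193920-106193979), is printed to show what a value on the array reads, with no base marked.
TET2 probe: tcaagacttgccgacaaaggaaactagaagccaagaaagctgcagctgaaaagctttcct
That probe read -0.28 and -0.34 with the mimic and -0.29 and -0.15 with the control, which overlapped, for a difference of -0.091 (SE 0.074, interval from -0.31 to 0.13). It lies 30078 bases from the 5′-most TET2 probe. Further toward the 3′ end, at 35776 bases, A_33_P3238690 (chr4:106199618-106199677) read -1.37 and -1.17 with the mimic and -1.63 and -1.82 with the control. Here both mimic arrays were above both control arrays, and the difference of 0.46 (SE 0.11, 1.37-fold) was the largest of any tested member probe. Its unadjusted p was 0.0202 and its adjusted p 0.148 by limma (0.146 with a variance trend), with an interval from 0.12 to 0.79. It was the one member probe whose interval reached past a 1.5-fold change. With normexp background correction the difference was 0.15, in the same direction.

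The last TET2 probe, A_23_P350187 (chr4:106200570-106200629), ran the same way at a smaller size. It read 0.93 and 1.07 with the mimic and 0.73 and 0.80 with the control, without overlap, and the difference was 0.24 (SE 0.079, unadjusted p = 0.0466 and adjusted p = 0.200 by limma, interval from 0.0060 to 0.46). The probe nearest the 5′ end, A_33_P3266719 (chr4:106163842-106163901), is annotated to another transcript, NM_017628, and ran the other way. It read -2.86 and -2.62 with the mimic and -2.56 and -2.49 with the control, close above the lowest detected signals, and the difference was -0.22 (SE 0.11, adjusted p = 0.309 by limma, interval from -0.53 to 0.095). That value was -0.032 with quantile normalization and ran from -0.33 to -0.096 when 1 array was left out, the smallest without the first mimic array and the largest without the second. Its interval does not overlap that of A_33_P3238690, while the intervals of the other pairs of TET2 probes do. For A_33_P3238685 and A_33_P3238690, both annotated to NM_001127208, the overlap is slight: the former ends at 0.125 and the latter begins at 0.123. A direct test between the probes was not made, and no direction is given for TET2 as a gene.

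TET3, the remaining dioxygenase, was not measured by these arrays in a way that allows a comparison. Probe A_33_P3331335 (NM_144993, chr2:74328560-74328619) read -3.00 and -4.53 with the mimic and -4.37 and -3.31 with the control, and it was well above background on the first mimic array only. Probe A_33_P3235177 (chr2:74329639-74329698) was well above background on no array, at -3.87, -4.59, -5.14 and -4.61. For these probes, and for those of DNMT3L, the second DNMT3B transcript and the second MBD2 transcript, a difference between conditions was not detectable.

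**Figure D2:**
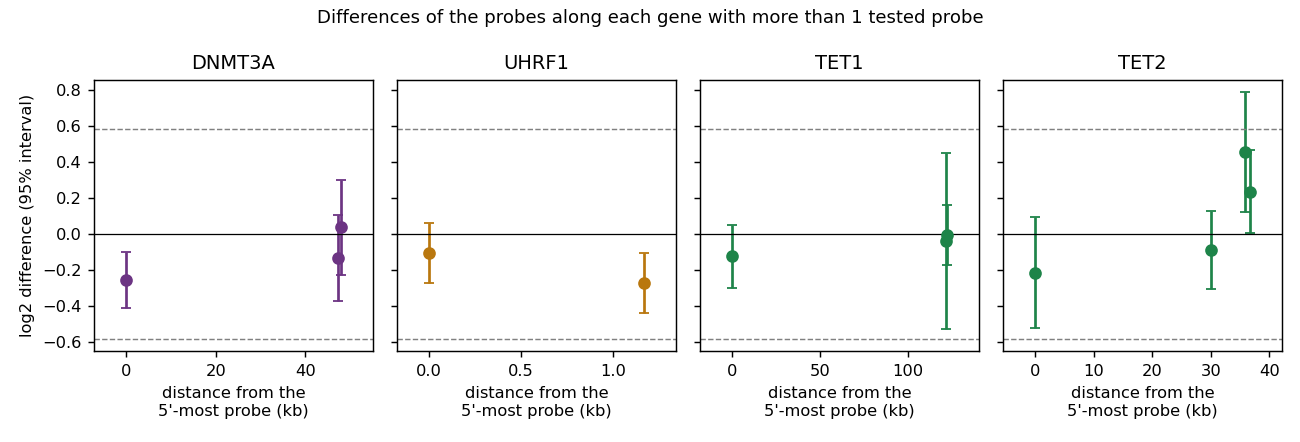
Difference of mimic minus control (log2, with 95% intervals) against the distance in kilobases from the 5′-most probe, for the 4 members with more than 1 tested probe. Dashed lines mark a 1.5-fold change; in TET2 the probes run from -0.22 at the 5′-most position to 0.46 and 0.24 near the 3′ end, while the TET1 probes lie between -0.13 and -0.0091.

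The member probes as a set lay slightly below 0. Of the 15 tested probes, 11 had a difference below 0 and 4 above. Over all 21474 tested probes, 11064 were below 0 and 10410 above. The member median was -0.091, where the median over all tested probes was -0.0077. The median SD between replicate arrays was 0.0799 for the member probes and 0.0841 for all probes. The member median moved with the processing: it was -0.052 with normexp background correction, -0.032 with quantile normalization and -0.024 without the second control array.

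No member was called by the planned test. limma gave an adjusted p under 0.05 to 0 of the 15 member probes and to 0% of all tested probes, with a smallest adjusted p of 0.126 among members and 0.0948 among all. At an unadjusted p under 0.05 there were 2 member probes lower (11.6% of all probes) and 2 higher (12.7% of all). The lower ones were DNMT3A probe A_23_P420373, annotated to NM_175630, and UHRF1 probe A_23_P208880, and the higher ones were both of TET2. The DNMT3A probes annotated to NM_175629 and the other UHRF1 probe were not among them. With a variance trend 1 member probe was called lower (3.6% of all probes) and 0 were called higher (3.81% of all). The methods' t-test called 0 member probes after adjustment (0.00466% of all probes), and 2 at an unadjusted p under 0.05 (19.6% of all).

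The size of the changes was bounded more firmly than their direction. No tested member probe was lower by more than 1.5-fold (4.8% of all probes were) or higher by more than 1.5-fold (2.11% of all). The shares of all tested probes include probes detected in 1 condition only, which no tested member probe was. Of the 20068 probes detected on all 4 arrays, 512 were lower and 285 higher by more than 1.5-fold. The 95% interval lay within 1.5-fold either way for 14 of the 15 member probes, against 68.5% of all probes. Both mimic arrays lay below both control arrays for 7 tested member probes (30.1% of all probes) and above them for 2 (30.4% of all). Those 7 were the probes of DNMT1 and UHRF1, 2 of the DNMT3A probes and 1 probe each of TET1 and TET2. For a single probe, the smallest two-sided p that an exact permutation test allows here is 0.33.

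**Figure D3:**
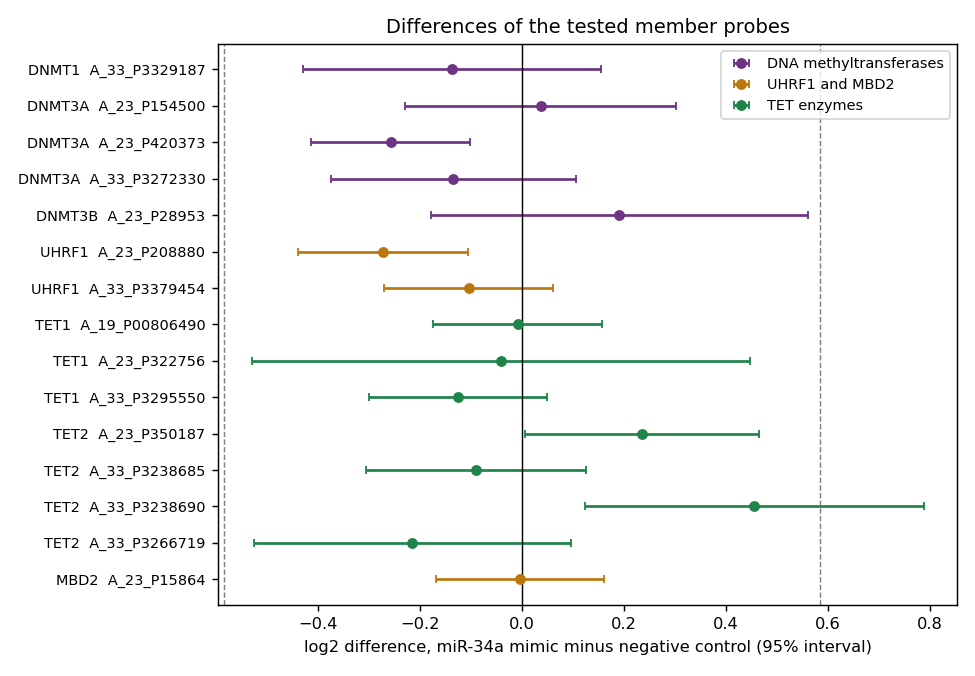
Difference of mimic minus control (log2, points) with its 95% interval from limma (bars) for the 15 tested member probes, colored by role. Dashed lines mark a 1.5-fold change either way; 14 intervals lie within them, and that of the TET2 probe at 0.46 passes the upper line.

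The partners that act with DNMT1 and UHRF1 at the replication fork were read beside the members, with the brightest tested probe of each gene. All 10 listed partners were detected, 8 with a difference below 0, and their median was -0.15. With a variance trend 4 were lower at an adjusted p under 0.05 and 0 were higher, while limma as planned called 0 and gave 5 an unadjusted p under 0.05. Over all probes these shares were 3.6%, 3.81% and 24.3%, and 11064 of the 21474 tested probes were below 0. HDAC1, a deacetylase that binds DNMT1 and is also a subunit of NuRD, read 4.73 and 4.74 with the mimic and 5.41 and 5.40 with the control. Its difference of -0.67 (SE 0.052, 1.59-fold, adjusted p = 0.0948 by limma and 0.0067 with a variance trend) was past the 1.5-fold mark. PCNA, the sliding clamp of the replication fork, differed by -0.36 (adjusted p = 0.0211 with a variance trend), and its other probes by -0.22 and -0.18 (0.0596 and 0.0543). HELLS, a remodeler needed for methylation of repeats, differed by -0.34 (adjusted p = 0.0366), and CDCA7, which activates HELLS, by -0.35 (adjusted p = 0.0201), also with the trend. Second probes of HELLS, at -0.29 (adjusted p = 0.0577), and of CDCA7, at -0.14, were not called. USP7, the deubiquitinase that stabilizes DNMT1 and UHRF1, went the other way, at 0.79 on a dim probe (-1.77 and -2.37 with the mimic, -2.78 and -2.93 with the control, adjusted p = 0.178 by limma). That value was 0.22 with normexp, 0.49 without the first mimic array and 1.09 without the second.

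Because UHRF1, DNMT1, PCNA and HELLS are read mostly in dividing cells, a list of 24 S phase and proliferation genes was set beside them. All 24 were detected, 21 had a difference below 0 (11064 of all 21474 tested probes did), and the median was -0.19 (range -0.51 to 0.095). On the brightest probe of each gene 0 were past 1.5-fold, and 7 were lower with a variance trend (3.6% of all probes). The planned limma fit gave 14 of them an unadjusted p under 0.05 (24.3% of all probes) and 0 an adjusted p under 0.05. A dim second probe of PLK1 differed by -0.70 without being called, and a second probe of CCNB1 was called with the trend, at -0.26 (adjusted p = 0.0475). The UHRF1 probes, at -0.27 and -0.11, and the DNMT1 probe, at -0.14, lie inside that range. The part of this list in the UHRF1 and DNMT1 values was not tested.

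Readers other than MBD2 gave no called change. The 9 listed, MBD1, MBD3 and ZBTB33 among them, were all detected, and their differences ran from -0.18 to 0.11 with a median of 0.0011. None of them had an unadjusted p under 0.05 by limma or an adjusted p under 0.05 with a variance trend. The difference farthest from 0 was that of ZBTB38, at -0.18, and it turned to 0.084 without the second control array. Of the 11 NuRD subunits, the complex that MBD2 recruits, 8 had a difference below 0 (median -0.068). With a variance trend HDAC1 and RBBP4 were lower (3.6% of all probes) and 0 were higher (3.81% of all). A dim HDAC2 probe, detected on the control arrays only, differed by -1.21 without being called (adjusted p = 0.113 with the trend). By limma 5 of the 11 had an unadjusted p under 0.05 (24.3% of all probes) and 0 an adjusted p under 0.05. The brightest RBBP4 probe differed by -0.22 (adjusted p = 0.0478 with the trend), and another RBBP4 probe by -0.20 (0.0474). The remaining RBBP4 probes, at -0.036 and -0.072, were not called. GATAD2B, which bridges MBD2 and the rest of NuRD, differed by 0.68 on a dim probe that read -1.21 and -1.18 against -1.69 and -2.06 (1.60-fold, adjusted p = 0.131 by limma and 0.0842 with a variance trend).

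Downstream of the TET enzymes, base excision repair takes out oxidized or deaminated cytosine. A list of 12 genes around this step also held the GADD45 adaptors and OGG1, which acts on oxidized guanine. Of these 12, 7 had a difference below 0 and 5 above, with a median of -0.056. By limma 8 had an unadjusted p under 0.05, in both directions (24.3% of all probes), and 0 an adjusted p under 0.05. Calls with a variance trend were 1 lower (3.6% of all probes) and 2 higher (3.81% of all). GADD45G, a stress-induced adaptor linked to demethylation, read 4.32 and 4.08 with the mimic and 5.00 and 4.94 with the control. The difference was -0.77 (SE 0.11, 1.71-fold, adjusted p = 0.0954 by limma and 0.0157 with a variance trend), and a second GADD45G probe differed by -0.50 (0.0177 with the trend). Its relative GADD45B was higher with the trend, at 0.50 (adjusted p = 0.0385), as was the repair scaffold XRCC1, at 0.23 (adjusted p = 0.0390). The GADD45 genes thus did not share a direction, and GADD45A differed by -0.20 without being called.

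Among genes of the cofactor supply, limma called 0 at an adjusted p under 0.05, with or without a variance trend, and 2 had an unadjusted p under 0.05, both in the S-adenosylmethionine cycle. Methyltransferases use S-adenosylmethionine, and of the 11 genes of its cycle 8 were tested, 6 of them above 0 with a median of 0.11. BHMT and GNMT of that list were detected on no array. TET enzymes use 2-oxoglutarate, and the 9 genes of its metabolism had a median of 0.0077, with IDH2 at 0.27 (SE 0.16, adjusted p = 0.358 by limma). IDH2 was at 0.048 with normexp, 0.075 without the first control array and 0.47 without the second.

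Other proteins that act at CpG islands or on methylated chromatin lay around 0. The 7 genes of the CXXC and CpG island list had a median of 0.023, and CXXC5 was farthest from 0 at -0.44 (SE 0.25, adjusted p = 0.354 by limma), with -0.15 under normexp, -0.76 without the first mimic array and -0.12 without the second. KMT2A of that list was found by accession, since the array gives its older name MLL. The 10 heterochromatin partners had a median of -0.0032, with 5 below 0 and 5 above. On the brightest probe of each gene, 1 was called lower with a variance trend (3.6% of all probes) and 0 higher (3.81% of all). The called gene was DAXX, a histone chaperone, at -0.30 (adjusted p = 0.0411 with the trend). A dim CBX3 probe, detected on the control arrays only, differed by -1.75 without being called (adjusted p = 0.174 with the trend). Dimmer probes of CBX1, at -0.37 (adjusted p = 0.0274), and of the remodeler ATRX, at 0.26 (adjusted p = 0.0462), were called with the trend too, while the brightest probes of both genes were not.

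Germline genes that methylation often keeps silent in somatic cells were mostly undetected in both conditions. Of 20 listed, 18 were on the array by name and 16 of these were well above background on no array, among them MAGEA1, MAGEC2, DAZL, DDX4 and MAEL. The other 2, SSX2 and TDRD1, were detected on all 4 arrays by the brightest probe of each. SSX2 read -2.37 and -2.81 with the mimic and -1.99 and -1.91 with the control, a difference of -0.64 (SE 0.17, 1.56-fold, adjusted p = 0.160 by limma), on a probe that near-identical SSX copies may share. TDRD1 differed by -0.28 (SE 0.24) on its brightest probe, with overlapping arrays. A second TDRD1 probe, not detected on the second mimic array, differed by -1.44 (SE 0.92, adjusted p = 0.394 by limma). Its control arrays lay far apart, at -2.87 and -0.41. Neither of the detected germline genes was higher with the mimic.

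**Figure D4:**
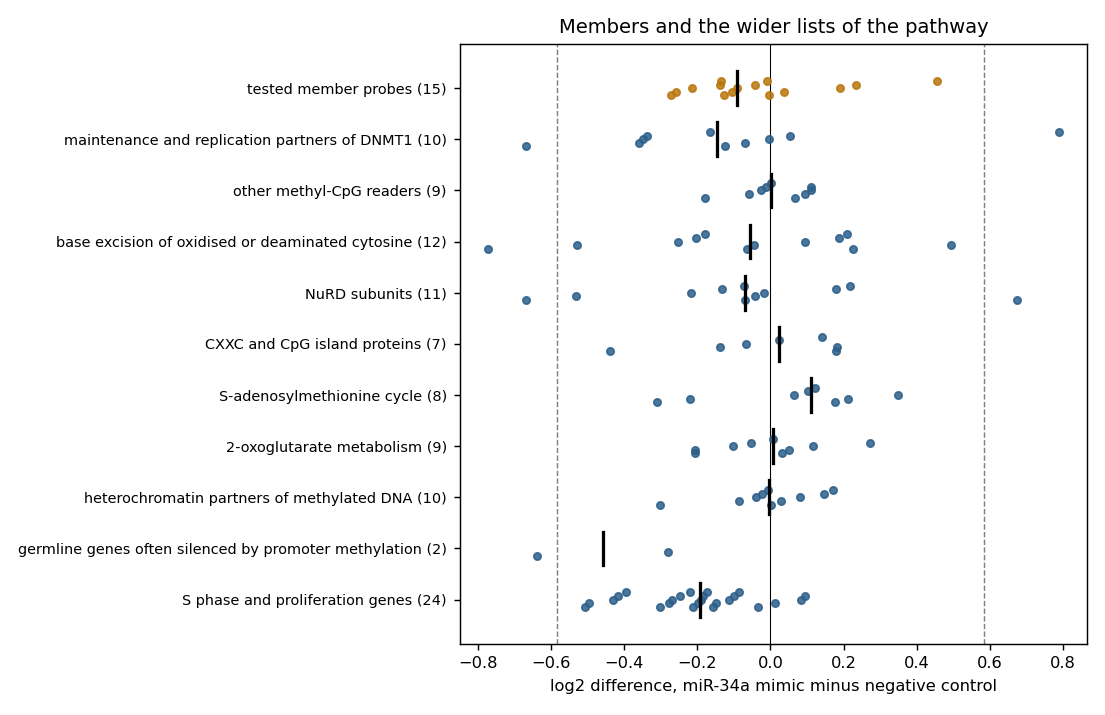
Difference of mimic minus control (log2) for the 15 member probes and, in each wider list, for the brightest tested probe of each gene; the number tested is in parentheses, bars mark medians and dashed lines a 1.5-fold change. Medians run from -0.46 for the 2 germline genes and -0.19 for the S phase genes to 0.11 for the S-adenosylmethionine cycle, with the member probes at -0.091.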

How the data were processed

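RNA from GIST-T1 cells (100 ng per sample) was labeled with Cy3 and hybridized to one-color Agilent arrays, 2 per condition. The authors deposited spot intensity values from Agilent Feature Extraction 10.7.3.1 (10.7 in the submitters' processing notes), background-subtracted and detrended within the array, and per-spot flags for detection, saturation and outliers. The deposited table of all arrays holds the same processed intensity, within 0.5%. Neither is scaled between arrays.

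Control spots and outlier spots (293 to 424 of 58717 per array) were left out, and spots of a probe were averaged. The log2 signal was shifted by the array's 75th percentile. limma 3.58.1 (R 4.3.3, data.table version 1.17.8) was fitted to all 4 arrays, with Benjamini-Hochberg adjustment over 21474 probes (16192 gene names). The 1.5-fold threshold is that of the study. Positions of probes are those of the array's hg19 annotation, and exon or UTR annotation was not used here. Members and lists were chosen with earlier results of these data known. Every member probe is reported; from each list the genes past 1.5-fold on a probe detected on all 4 arrays are named, or else the gene farthest from 0, and genes called with the variance trend, RBBP4, GADD45A, TDRD1, DES, CD34, ANO1, ETV1 and second probes of listed genes were named after their values were seen. A gene that this rule names is not reported here. Alternatives were quantile normalization, normexp (offset 50) background correction, the 75th percentile over detected probes only, other filters, the authors' table, a variance trend, a replicate block, the methods' t-test and leaving out each array. The number of arrays limits the precision.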

Additional observations from a re-analysis of the deposited data

How the results depend on the processing

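The count of member probes past 1.5-fold stayed at 0 in both directions except without a filter on dim probes, where 1 was lower and 1 higher, on probes of DNMT3B and TET3 that were detected on no array. Over all probes, the counts lower and higher by more than 1.5-fold (1030 and 453) were 185 and 68 with normexp background correction, 6823 and 2070 without the filter, 512 and 285 over probes detected on all 4 arrays, and 2628 and 789 over probes detected on at least 1 array. Quantile normalization gave 775 lower and 702 higher. The cause was not tested, apart from the filters, which change how many dim probes are counted. The member median ran from -0.099 with the authors' table to -0.032 with quantile normalization over settings with all arrays, and from -0.091 to -0.024 when 1 array was left out. The germline median was -0.045 without the filter, over more genes. The median of the markers of other cells (0.070) was -0.034 with normexp, 0.19 with quantile normalization, -0.062 without the filter and -0.18 over probes detected on at least 1 array. limma gave 877 adjusted calls with normexp and 1591 with the variance trend, and the methods' t-test gave 1 (4202 at an unadjusted p under 0.05).

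Leaving out 1 array at a time gave medians from -0.21 to -0.13 for the maintenance partners, -0.0059 to 0.084 for the other readers, -0.14 to 0.068 for 2-oxoglutarate metabolism, -0.018 to 0.044 for the heterochromatin partners and -0.22 to -0.10 for the GIST markers. The farthest values came without the second mimic array for the maintenance partners, without the second control array for the readers, and without the first mimic array for the rest. Probes near 0 turned sign: DNMT3A A_23_P154500 to -0.065 without the first mimic array (range -0.065 to 0.14), TET1 A_19_P00806490 to 0.0140 and 0.0153 (range -0.033 to 0.015) and TET1 A_23_P322756 to 0.16 and 0.022 (range -0.25 to 0.16), each without the second mimic or the second control array. MBD2 turned to 0.0037 with quantile normalization and to 0.0100 and 0.0252 without the first mimic or the second control array (range -0.033 to 0.025), and ZBTB38 to 0.084 without the second control array (range -0.44 to 0.084). The other 11 member probes with a test kept their sign under all 14 alternatives. Replicate numbers did not pair the arrays (correlation of deviations -0.028), and a replicate block gave 0 adjusted calls, 4188 unadjusted calls in place of 5222, and the same 1030 and 453 probes past 1.5-fold by count, with a member median of -0.091.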
